A study of Mus musculus with 11 samples.

Results

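Neurotrophins, their receptors and a pair of genes tied to axon growth and nerve injury were described in the mouse cortex after a photothrombotic stroke. The set holds 8 genes: Bdnf and Ntf3 (ligands), Ntrk2, Ntrk3, Ngfr and Sort1 (receptors), Gap43 (axon growth) and Atf3 (injury response). They were taken by symbol from the 22377 genes measured, and each symbol matched 1 row. Capped RNA 5′ ends were counted by CAGE (cap analysis of gene expression), a method that traps capped RNA and reads its start, in 11 cortex libraries with 1 library for each group.

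The mice were C57BL/6N males. In the stroke groups an LED light over the left parietal cortex, shone for 30 min after rose bengal, a dye that clots vessels where it is lit, made the infarct. A naive group was untreated. The other 10 libraries come from stroke mice, 1 from each side of the cortex in each of 5 states: 7 d after stroke, 7 d with levetiracetam (an anti-seizure drug), 1 month, 1 month with levetiracetam, and 2 months after 2 weeks of withdrawal from levetiracetam. Ages of 8 to 10 and 65 to 85 weeks are given for the study and not for each library. The study's text also has levetiracetam starting 1 month after stroke for 2 weeks with 1 week of withdrawal, which differs from the sample labels, and the labels were followed. It further describes electrodes and pentylenetetrazol, a drug that provokes seizures, without saying which libraries' mice received them. The labels do not say how many mice made a library, or whether both sides came from the same mice.

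Neurotrophins are secreted growth factors that keep neurons alive and shape their axons and synapses. BDNF signals through the receptor kinase TrkB (Ntrk2) and neurotrophin-3 mainly through TrkC (Ntrk3), while p75 (Ngfr) binds all mature neurotrophins weakly. With sortilin (Sort1), p75 forms a receptor for the uncleaved proneurotrophins, which can signal cell death. In the cortex, Bdnf is made mostly by excitatory neurons and follows their firing, GAP-43 (Gap43) is a protein of growth cones and sprouting axons, and ATF3 (Atf3) is a transcription factor switched on by stress and by injury to axons.

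Library totals ran from 12928291 to 21000367 tags, of which 92.3% to 97.3% fell in the genes of the table, and 3 tags corresponded to 0.143 to 0.232 CPM (tags scaled to the total of the library, the unit of the deposited values). With 1 library a group, the 5 states served as repeats for the side comparison, and p-values measure the spread among these libraries only. Cell type markers differed between the libraries beside the genes reported here. Summed phagocyte markers were 1332, 1172, 607, 124 and 274 CPM on the infarcted side in the order of states above, against 29.8 to 46.9 CPM on the other side and 26.1 CPM in naive cortex. Excitatory neuron markers summed to 1924 to 3143 CPM on the infarcted side, 2214 to 3540 CPM on the other side and 2712 CPM in naive cortex. Choroid plexus markers reached 368 CPM in the naive library and 206 CPM in the non-infarcted 1 month library with levetiracetam, and stayed between 16.3 and 35.2 CPM in the other 9. A single gene, Ttr, made up 350 CPM of the naive sum and 195 CPM of the sum of 206 CPM. Neutrophil markers summed to 168 CPM in the untreated non-infarcted 7 d library and 64.9 CPM in the infarcted one. They lay between 5.16 and 23.6 CPM in the other libraries, and their part in the results was not tested. In tissue libraries such as these, fewer cells of a type and less RNA per cell cannot be told apart.

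Across the 8 genes, Atf3 alone was called between the sides. It was higher on the infarcted side, while 7 of 8 genes, among them all of the ligands and receptors, did not pass the test. A gene was called at an adjusted p under 0.05 (limma on log2(CPM + 1), Benjamini-Hochberg over all genes tested), and 7.00% of the 16229 genes tested were called in this comparison. The 7 genes not called had log2 differences from -0.19 to 0.26, with adjusted p from 0.335 to 0.920. The median over the 8 genes was -0.01 on the log2 scale, against 0.01 over all genes tested.

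**Figure D1:**
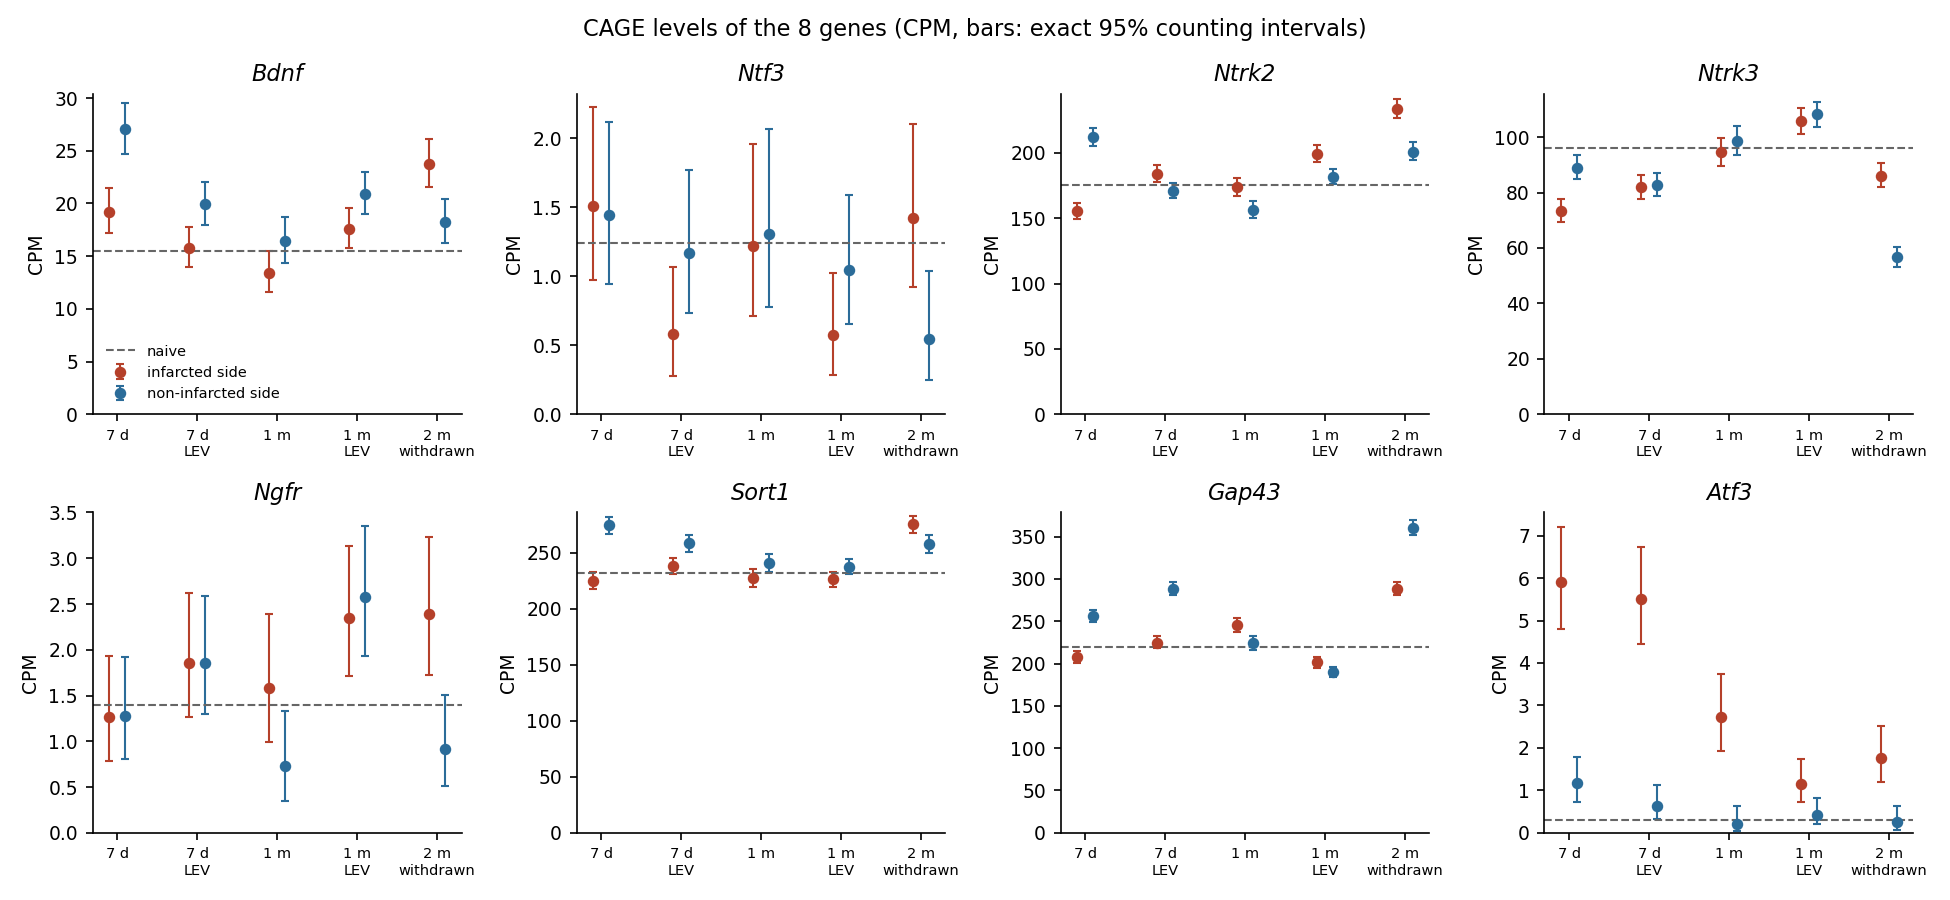
CPM of each of the 8 genes by state after stroke (x axis, LEV for levetiracetam) for the infarcted side (red) and the non-infarcted side (blue), 1 library per point, with exact 95% counting intervals as bars and the naive library as a dashed line; y axes start at 0 and differ between genes. Atf3 was higher on the infarcted side in 5 of 5 states, and the other genes crossed between the sides in at least 1 state.

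Bdnf, the ligand of TrkB, was measured at 15.5 CPM in naive cortex. In the order 7 d, 7 d with levetiracetam, 1 month, 1 month with levetiracetam and 2 months, its level was 19.2, 15.8, 13.4, 17.6 and 23.8 CPM on the infarcted side. It was 27.0, 19.9, 16.4, 20.9 and 18.3 CPM on the non-infarcted side. The infarcted side was thus the lower of the pair in the first 4 states and the higher at 2 months, and the ranges of the sides overlapped. The ratio of infarcted to non-infarcted was 0.712 (exact 95% interval on tags 0.616 to 0.821) at 7 d and 1.30 (1.12 to 1.51) at 2 months. Such intervals cover counting error only and compare 2 libraries, not conditions. Over the 5 states the log2 difference was -0.19 (SE 0.12, limma adjusted p = 0.375). Without the 2 month state it was -0.32, and limma's adjusted p was then 0.0445.

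Between 7 d and 1 month, Bdnf differed beyond counting error on both sides in the untreated libraries, while in the treated ones the intervals held equality. Without the drug, the ratio of 1 month to 7 d was 0.698 (0.580 to 0.839) on the infarcted side and 0.607 (0.516 to 0.713) on the other. With levetiracetam the same ratios were 1.11 (0.946 to 1.31) and 1.05 (0.911 to 1.21). The fitted log2 difference was -0.17 infarcted (limma adjusted p = 0.586) and -0.31 non-infarcted (limma adjusted p = 0.278), so neither was called. Among genes with a mean of at least 10 CPM, 5% were below -0.62 in the untreated infarcted pair and Bdnf, at -0.52, was not. In the untreated non-infarcted pair 5% were below -0.59, and Bdnf, at -0.72, lay beyond that. Seen the other way, the ratio of treated to untreated was below 1 on both sides at 7 d, at 0.823 (0.697 to 0.970) infarcted and 0.738 (0.643 to 0.846) non-infarcted. At 1 month it was above 1 on both, at 1.31 (1.09 to 1.58) and 1.27 (1.08 to 1.502). As a scale for these ratios, 5% of the genes with a mean of at least 10 CPM had a log2 ratio of treated to untreated below -0.22 on the infarcted side at 7 d and below -0.32 on the other, and Bdnf, at -0.28 and -0.44, lay beyond both. At 1 month 5% of such genes were above 0.49 and 0.45, and Bdnf, at 0.39 and 0.35, lay within the range of the other genes on both sides. Each is a ratio of single libraries, so the change of sign was not tested. Here and below, the 5% limits were computed on CPM + 1, and the log2 ratios of single genes on CPM itself.

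The level of Bdnf in the naive library was lower than in 9 of the 10 stroke libraries, and the counting interval left out equality in 5. For the non-infarcted side against naive the log2 difference was 0.37, with a limma adjusted p of 0.99997. In that comparison 0% of 15983 genes were called, while 151 had an unadjusted p under 0.05, and edgeR on the recovered tags called 0. None of the 7 genes of the set tested there was called by limma or edgeR, and 0 of them had an unadjusted p under 0.05 by either tool. Atf3 fell under the expression limit on that side, a mean of 1 CPM, and was not tested.

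Genes of neuronal firing were listed because Bdnf follows firing. Of 20 such genes, 3 were called lower on the infarcted than on the other side and 0 higher, where 7.00% of all genes were called, with a median log2 difference of -0.19 against 0.01 over all genes tested. The number called ran from 0 to 6 over 12 alternative fits. The 3 were Nr4a1 (-0.43), a nuclear receptor, Egr4 (-0.34), a zinc finger factor, and Dusp1 (-0.34), a phosphatase that switches off MAP kinases. The single calls held in 8, 8 and 5 of the 12. From 7 d to 1 month, 9 of the 20 fell on the non-infarcted side, where 12.4% of all genes were called and the median was -0.38 against -0.06 over all genes. The number called there ran from 4 to 11 over the alternatives. On the infarcted side 3 of the 20 fell, a share no larger than the 16.7% of all genes called, with 0 to 9 called over the alternatives. Those 3 were Junb (-0.71), an AP-1 subunit, Arc (-0.44), a synaptic protein made on demand, and Egr4 (-0.42).

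Bdnf is transcribed from several alternative first exons on chromosome 2, and the deposited value is the sum over all of them. RefSeq (GRCm38.p6) places 7 promoter windows along the gene, which spans chr2:109674700-109727007 on the plus strand. A pair is shown to illustrate how far the starts differ in sequence, from 160 bases before to 10 after the annotated start, with matches to the searched motifs in capitals. The first lies at chr2:109674540-109674709 and holds none of the motifs. The other, at chr2:109692276-109692445, holds CGTCA from 35 to 31 bases before the start, the reverse complement of TGACG.
Bdnf window 1: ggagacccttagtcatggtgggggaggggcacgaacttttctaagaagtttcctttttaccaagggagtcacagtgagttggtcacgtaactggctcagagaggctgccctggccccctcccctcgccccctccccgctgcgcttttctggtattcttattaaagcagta
Bdnf window 3: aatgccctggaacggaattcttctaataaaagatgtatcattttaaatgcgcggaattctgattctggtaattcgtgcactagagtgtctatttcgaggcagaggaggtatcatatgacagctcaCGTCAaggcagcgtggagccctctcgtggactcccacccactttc

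The motifs searched on both strands were TGACGTCA (cAMP response element), TGACG (its core, which each whole element holds), TGANTCA (AP-1), the TATA box, as TATAAA, and GGGCGG (GC box). TGACG occurred in 20.81% of the 32851 windows in the table, which run from 250 bases before to 50 after a start, and in 2 of the 12 windows found for 5 of the 8 genes, those of Bdnf and Atf3. TGACGTCA occurred in 1.79% of all windows and in 0 of the 12. GGGCGG occurred in 35.66% of all and in 7 of the 12, TGANTCA in 7.808% and in 1, and TATAAA in 13.62% and in 0. These matches describe letters and not bound sites.

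Ntf3, which encodes neurotrophin-3, was scarce, with 9 to 26 tags a library. Its level was 1.24 CPM in naive cortex, and 1.51, 0.579, 1.22, 0.573 and 1.42 CPM on the infarcted side. On the non-infarcted side it was 1.45, 1.17, 1.31, 1.05 and 0.546 CPM. The sides overlapped, and the 3 lowest libraries, both treated infarcted ones and the 2 month non-infarcted one, could not be ordered beyond their counting intervals. The side difference was -0.04 on the log2 scale (SE 0.17, limma adjusted p = 0.920). Treated libraries were below untreated ones in 4 of 4 pairs, with ratios from 0.385 to 0.809, and the interval left out equality in 1, at 7 d on the infarcted side (0.385, 0.165 to 0.829). On the infarcted side the mean fell under the expression limit in the 4 libraries of 7 d and 1 month, so neither time nor the drug was tested there.

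Ntf5, which encodes another ligand of TrkB and is outside the set, reached at most 0.260 CPM. It fell under the expression limit and was not tested.

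Ntrk2, the TrkB receptor, was measured at 176 CPM in naive cortex. The infarcted side had 156, 184, 174, 199 and 234 CPM, and the non-infarcted side 212, 171, 157, 182 and 201 CPM. Infarcted libraries were the higher of the pair in 4 of 5 states, and at 7 d without the drug the order was the other way, with a ratio of 0.734 (0.698 to 0.772). Both sides spanned nearly the same range. The side difference was 0.03 (SE 0.10, limma adjusted p = 0.886), and its sign turned under other scalings, to -0.029 with libraries centred on their median gene and to -0.0052 with TMM factors. Full-length TrkB and the truncated form that astrocytes make can share starts, so a sum over starts does not separate them.

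The difference between the sides in how Ntrk2 changed from 7 d to 1 month was 0.31 on the log2 scale (SE 0.13, limma adjusted p = 0.197). Fits that leave out a state have to drop the drug as a factor too, and 1 of the times then has a single state, assumed to vary like the other. Dropping the drug alone left the value at 0.31, with adjusted p = 0.335. Without the pair of 7 d libraries with levetiracetam as well it was 0.58, with adjusted p = 0.0345, and without the untreated 7 d pair 0.04, with adjusted p = 0.921. In the untreated 7 d pair the infarcted library was the lowest of the 11 and the non-infarcted one the second highest. For the drug, the difference between the sides was 0.26 for Ntrk2 (limma unadjusted p = 0.0490, adjusted p = 0.9998).

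Ntrk3, the TrkC receptor, stood at 96.1 CPM in naive cortex. Infarcted cortex had 73.5, 82.0, 94.4, 106 and 86.1 CPM, and the non-infarcted side 89.0, 82.8, 98.7, 108 and 56.6 CPM. Both sides had their highest value at 1 month with levetiracetam, and those 2 values did not differ beyond counting error (ratio 0.977, 0.920 to 1.04). The lowest of the 11 was the non-infarcted 2 month library. Infarcted cortex was the higher of the pair in 1 of 5 states, at 2 months, with a ratio of 1.52 (1.40 to 1.65). The side difference was 0.04 (SE 0.11, limma adjusted p = 0.863). It turned to -0.096 without the 2 month state and to -0.018 with libraries centred on their median gene.

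In 4 of 4 pairs of libraries Ntrk3 was higher at 1 month than at 7 d, with ratios from 1.11 to 1.31, and each interval left out equality. The log2 difference was 0.36 on the infarcted side (SE 0.14, limma adjusted p = 0.0656) and 0.26 on the other (SE 0.14, limma adjusted p = 0.242), so neither was called. On the infarcted side it was 0.44 with adjusted p = 0.0266 after centring on the median gene, and 0.44 with adjusted p = 0.00815 without the untreated 1 month library and the drug factor, which leaves 1 library at 1 month. Without the drug factor alone it was 0.36 with adjusted p = 0.125. At 2 months the level was lower than at 1 month with levetiracetam, with a ratio of 0.815 (0.762 to 0.871) infarcted and 0.523 (0.485 to 0.565) non-infarcted. The log2 ratio of the latter was -0.93, and 5% of 10744 genes with a mean of at least 10 CPM were below -0.76 in the same pair, while on the infarcted side Ntrk3, at -0.30, lay within the range of the other genes, of which 5% were below -0.59. That 2 month library also had the lowest share of tags in genes, 92.3%, and its part in the ratio was not tested. An annotated antisense gene, Gm9885, overlaps Ntrk3 and had a mean of 6.56 CPM against 88.5 CPM, and whether the counting used strand is not given in the sources used here.

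Ngfr, the p75 receptor, was also scarce, with 10 to 54 tags a library. It was 1.39 CPM in naive cortex, 1.27, 1.85, 1.58, 2.34 and 2.39 CPM on the infarcted side, and 1.28, 1.86, 0.726, 2.57 and 0.911 CPM on the non-infarcted side. The sides had almost the same level in both 7 d states and at 1 month with levetiracetam, and parted at 1 month without it and at 2 months. Only the ratio at 2 months, 2.63 (1.43 to 5.10), left out equality. The side difference was 0.26 on the log2 scale (SE 0.16, limma adjusted p = 0.384).

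Treated libraries had more Ngfr than untreated ones in 4 of 4 pairs. The ratios were 1.46 and 1.48 on the infarcted side and 1.46 and 3.54 on the other, and the last, with an interval of 1.79 to 7.80, was the one that left out equality. It compares 54 tags with 10. On the non-infarcted side the log2 difference was 0.69 (SE 0.24, limma unadjusted p = 0.0127, adjusted p = 0.963), and 0.00628% of 15931 genes were called there. At 2 months, after withdrawal, Ngfr was lower than at 1 month with levetiracetam on the non-infarcted side (ratio 0.354, 0.186 to 0.637) and not distinguishable on the infarcted side (1.02, 0.655 to 1.59).

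Sort1, or sortilin, varied least, with a ratio of highest to lowest library of 1.22. Naive cortex had 232 CPM, the infarcted side 225, 238, 228, 226 and 275 CPM and the non-infarcted side 275, 258, 241, 238 and 258 CPM. The infarcted side was lower in the first 4 states and higher at 2 months, the same order as for Bdnf. The side difference was -0.09 (SE 0.07, limma adjusted p = 0.460). Over the 11 libraries the Pearson correlation of log2(CPM + 1) between Sort1 and Bdnf was 0.752. That is a description over libraries that share states and depth.

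The rest of the neurotrophin pathway was read from a list of 25 genes, of which 24 were in the table and 23 were tested. Shc1, an adaptor that links receptor kinases to Ras, was higher on the infarcted than on the other side (13.8 to 24.9 CPM against 11.5 to 13.8 CPM, log2 difference 0.58). Sorl1, a sorting receptor related to sortilin, was lower (130 to 184 CPM against 160 to 216 CPM, -0.24). So 2 of 23 were called, 1 in each direction, a share near the 7.00% of all genes called, and the median was -0.02 against 0.01 over all genes tested. The number called ran from 0 to 4 over 12 alternatives, and from 0 to 7 for time on the infarcted side. The calls of Shc1 and Sorl1 held in 4 and 7 of 12 alternative fits. Ngfrap1 was not analysed here.

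From 7 d to 1 month on the infarcted side, 2 of these 23 fell and 1 rose, against 16.7% of 16399 genes called. Cdkn1a, a cell cycle inhibitor, fell by 0.78 on the log2 scale and Shc1 by 0.52, and Sorl1 rose by 0.45. Their calls held in 9, 5 and 9 of 12 alternative fits. The genes that moved are an adaptor, a sorting receptor and a cell cycle gene. Over the same interval 6 of 7 phagocyte markers were called lower, and their part in these results was not tested.

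**Figure D2:**
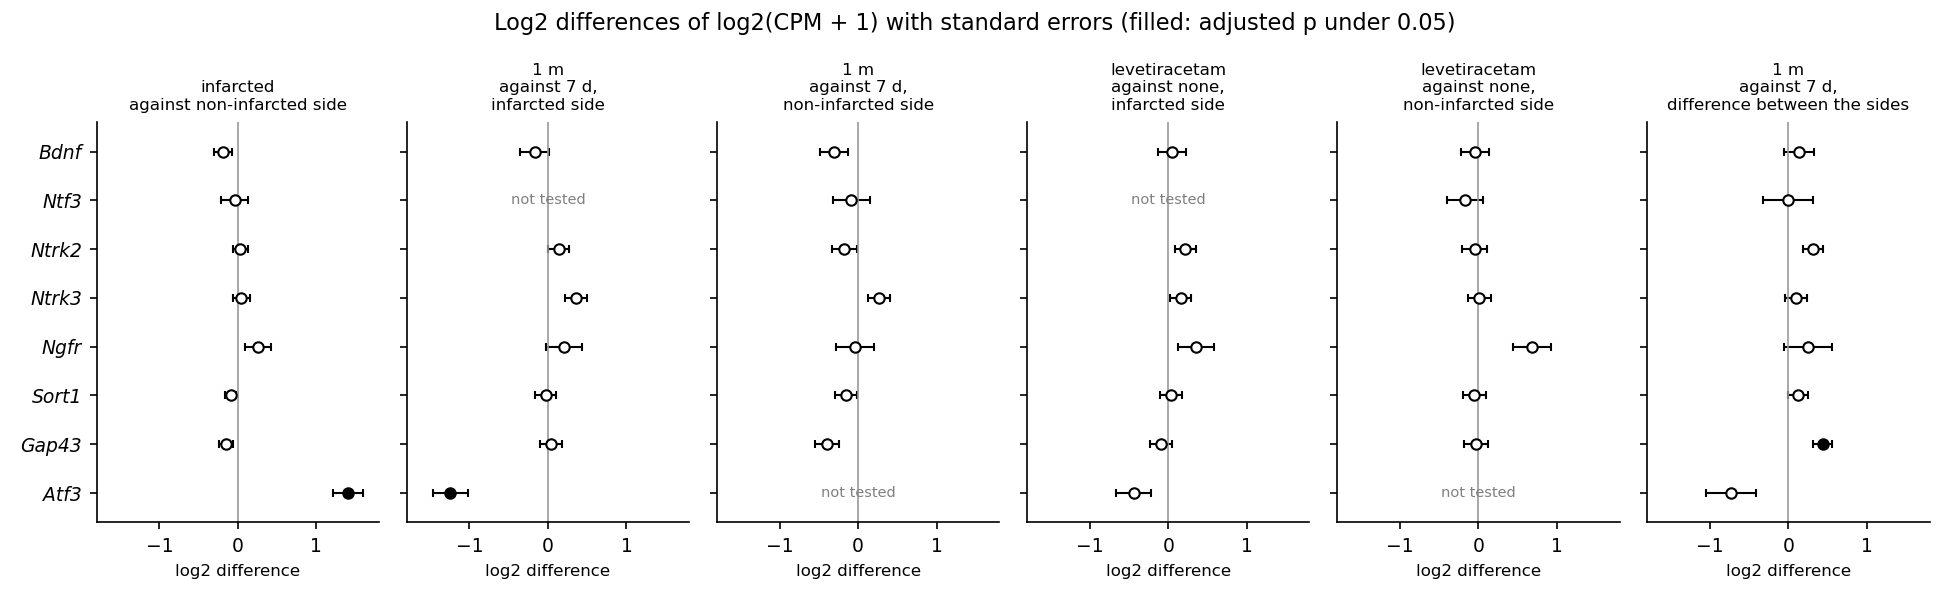
Log2 differences of log2(CPM + 1) with standard errors for the 8 genes (rows) in 6 comparisons (panels); filled points passed limma's adjusted p of 0.05 and genes under the expression limit are marked as not tested. The filled points are Atf3 for the side (1.40) and for time on the infarcted side (-1.24), and Gap43 for the difference between the sides in the time effect (0.43).

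Gap43, the growth cone protein, was measured at 219 CPM in naive cortex. Infarcted cortex had 208, 225, 245, 201 and 288 CPM, and the non-infarcted side 256, 289, 224, 190.3 and 361 CPM. The infarcted side was lower in both 7 d states and at 2 months, and higher in both 1 month states. Over the 5 states this left a side difference of -0.15 (SE 0.09, limma adjusted p = 0.335).

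The ratio of infarcted to non-infarcted Gap43 was 0.812 (0.777 to 0.849) and 0.779 (0.747 to 0.812) at 7 d without and with levetiracetam, 1.09 (1.04 to 1.15) and 1.06 (1.01 to 1.11) at 1 month, and 0.800 (0.770 to 0.831) at 2 months. The change with time from 7 d to 1 month thus differed between the sides by 0.43 on the log2 scale (SE 0.13, limma adjusted p = 0.0227), the 1 call among the 8 genes where 5.47% of 16228 genes were called. That test has 1 residual degree of freedom, so its spread comes mostly from other genes. The call was lost with edgeR on the recovered tags (adjusted p = 0.776), under both other scalings (0.112 and 0.0666), with no expression limit (0.0546) and without each of the 4 states in turn together with the drug factor (0.0864 to 0.160). It held without the drug factor alone (0.0388), while the size stayed between 0.40 and 0.46.

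Gap43 was lower at 1 month than at 7 d on the non-infarcted side, with ratios of 0.875 (0.836 to 0.916) without the drug and 0.659 (0.633 to 0.687) with it. The log2 difference there was -0.40 (SE 0.15, limma adjusted p = 0.105), and without the untreated 1 month library and the drug factor, with 1 library left at 1 month, it was -0.51 with adjusted p = 0.0124. Without the drug factor alone it was -0.40 with adjusted p = 0.101. On the infarcted side the ratios were 1.18 (1.12 to 1.24) and 0.895 (0.856 to 0.936), which lie on either side of 1. None of the 7 genes tested on the non-infarcted side was called for time by limma or edgeR, where 12.4% of 15931 genes were called, and Gap43 alone had an unadjusted p under 0.05 with each tool.

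With levetiracetam, the single-library ratios of Gap43 lay on the other side of 1 from those of Bdnf. Treated over untreated was 1.08 (1.03 to 1.13) infarcted and 1.13 (1.08 to 1.17) non-infarcted at 7 d, and 0.821 (0.784 to 0.860) and 0.849 (0.810 to 0.890) at 1 month. All 4 lay within the range of the other genes: the log2 ratios at 7 d, 0.11 and 0.17, were below 0.30 and 0.32, the values that 5% of genes with a mean of at least 10 CPM exceeded. Those at 1 month, -0.28 and -0.24, were above -0.47 and -0.41, under which 5% lay. After withdrawal at 2 months, Gap43 was above its level at 1 month with levetiracetam by a ratio of 1.43 (1.37 to 1.49) infarcted and 1.89 (1.82 to 1.97) non-infarcted. The latter, a log2 ratio of 0.92, compares with 0.72, above which 5% of 10744 genes lay in that pair. The former, 0.52, was within the range of the other genes, with 5% above 0.73. That non-infarcted 2 month library had the highest Gap43 level of the 11. Time since stroke and withdrawal of the drug cannot be told apart in the 2 month libraries.

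**Figure D3:**
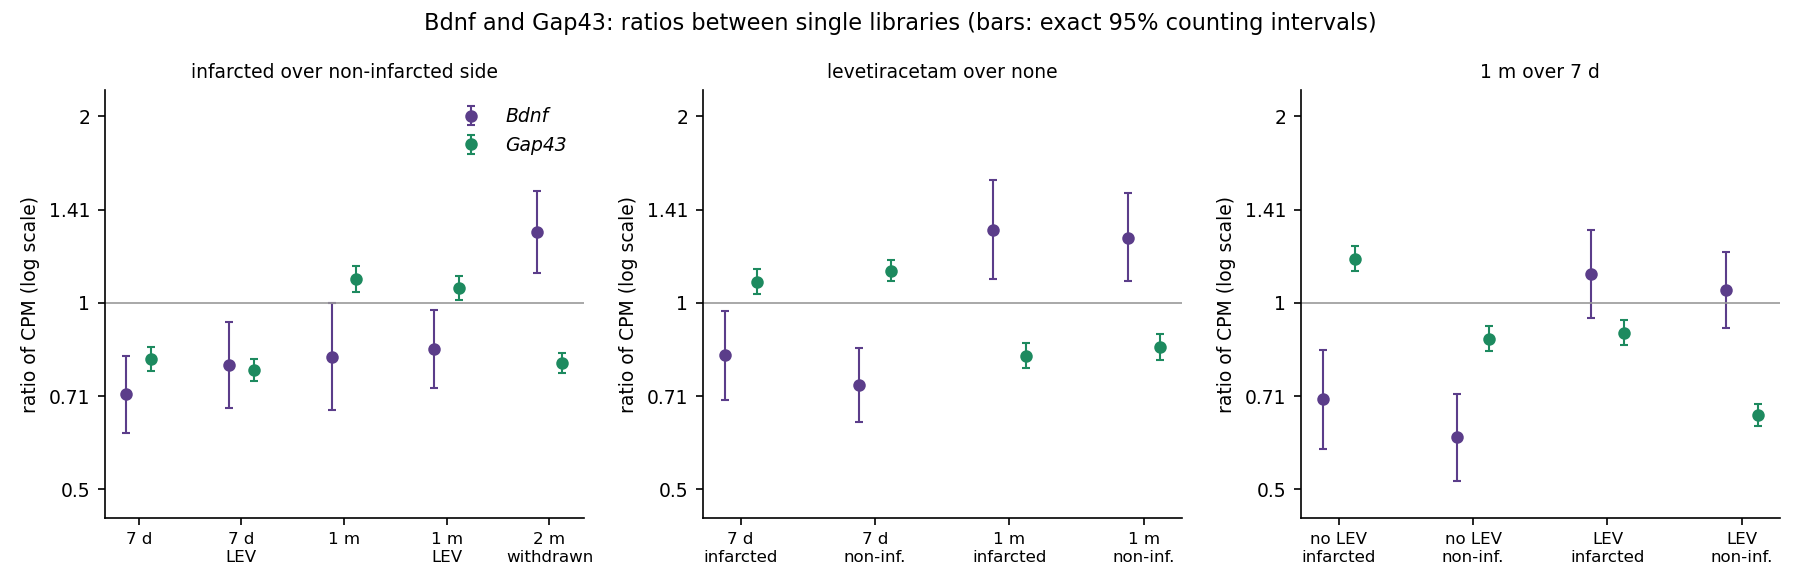
Ratios of CPM between single libraries for Bdnf (purple) and Gap43 (green), on a log axis, with exact 95% counting intervals (LEV, levetiracetam); the panels give the infarcted over the non-infarcted side, treated over untreated, and 1 month over 7 d. Treated over untreated lay below 1 at 7 d and above 1 at 1 month for Bdnf on both sides, and the other way round for Gap43.

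Other axon growth genes were read from 26 genes, of which 25 were in the table and tested, and Sprr1a was not analysed here. Marcks, an actin-binding substrate of protein kinase C, was the 1 gene called between the sides. It had 189 to 275 CPM on the infarcted side and 94.4 to 194 CPM on the other, a log2 difference of 0.56 (limma adjusted p = 0.0311, called in 8 of 12 alternatives). From 7 d to 1 month on the infarcted side 4 of 25 fell and 0 rose, a share near the 16.7% of all genes called, and the number called ran from 0 to 6 over the alternatives. They were Gal (-1.15), the neuropeptide galanin, Stmn1 (-0.59), a destabiliser of microtubules, Cap1 (-0.47), an actin regulator, and Marcks (-0.39), the last called in 2 of 12 alternatives. On the non-infarcted side Stmn1 went from 267 and 269 CPM at 7 d, without and with levetiracetam, to 165 and 156 CPM at 1 month. Cap1 went from 287 and 300 to 210 and 207 CPM there, and Marcks from 179 and 194 to 171 and 157 CPM. Gal went the other way, from 1.00 and 0.213 to 1.31 and 0.952 CPM. The list's median was 0.04 for the side and -0.01 for time, against 0.01 and -0.04 over all genes.

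Among 20 inhibitors of axon growth and their receptors, 3 were higher and 1 was lower on the infarcted side, where 7.00% of all genes were called, and the number called ran from 0 to 5 over 12 alternatives. Nrp1, a co-receptor of semaphorins and VEGF, had 18.9 to 40.2 CPM there and 16.1 to 21.1 CPM on the other side (log2 difference 0.74). The myelin proteins Mog and Mag followed with 0.41 and 0.37, and 5 of 6 oligodendrocyte markers, a list that holds both genes, were higher there too. Lingo1, a co-receptor of the Nogo receptor, was lower by -0.30. The calls held in 8 of 12 alternatives for Nrp1, 9 each for Mog and Mag and 6 for Lingo1. From 7 d to 1 month on the infarcted side Nrp1 fell by 0.73 and Ptprf, a receptor phosphatase, rose by 0.43, called in 10 and 5 of 12 alternatives. That makes 2 of 20, a smaller share than the 16.7% of all genes called, with 0 to 8 called over the alternatives.

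Atf3 was the gene of the set that moved most. Naive cortex had 0.309 CPM, which is 4 tags. The infarcted side had 5.91, 5.50, 2.73, 1.15 and 1.77 CPM, from 98, 95, 38, 22 and 31 tags. On the non-infarcted side it was 1.17, 0.638, 0.218, 0.429 and 0.243 CPM, from 21, 12, 3, 9 and 4 tags. Within each state the infarcted library was the higher, yet across states the ranges met, because infarcted cortex at 1 month with levetiracetam lay at the level of non-infarcted cortex at 7 d.

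The ratio of infarcted to non-infarcted Atf3 was 5.06 (3.13 to 8.54) at 7 d and 8.63 (4.72 to 17.3) at 7 d with levetiracetam. It was 12.5 (3.97 to 63.4) at 1 month, 2.67 (1.18 to 6.59) at 1 month with levetiracetam and 7.28 (2.57 to 28.4) at 2 months. Over the states the log2 difference was 1.40 (SE 0.20, limma adjusted p = 0.00924), and by edgeR on the recovered tags 2.59 (adjusted p = 0.00158). The smaller value is on the log2(CPM + 1) scale, which understates the change of a gene at these levels. Atf3 was called in 9 of 11 alternatives, and missed the threshold without the untreated 7 d pair (adjusted p = 0.0521) and without the untreated 1 month pair (0.0614). With a limit of 5 CPM it was not tested.

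From 7 d to 1 month Atf3 fell by 1.24 on the log2 scale on the infarcted side (SE 0.23, limma adjusted p = 4.15e-05), and it was called in 11 of 11 alternatives with values from -1.64 to -0.85. It was 1 of 7 genes tested, where 16.7% of all genes were called. The ratio of 1 month to 7 d was 0.462 (0.309 to 0.678) without the drug and 0.208 (0.125 to 0.334) with it. Non-infarcted Atf3 fell under the expression limit and was not tested for time, though its ratio in the untreated pair was 0.187 (0.0356 to 0.625), from 3 and 21 tags. Whether the time effect on Atf3 differed between the sides was tested at -0.73 (SE 0.32, limma adjusted p = 0.213). Without the untreated 1 month pair and the drug factor, which leaves a single state at 1 month, the difference was -1.24. Without the drug factor alone it was -0.73 with adjusted p = 0.316.

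Like Atf3, several markers of other cells were higher on the infarcted side and fell there from 7 d to 1 month. On the infarcted side 7 of 7 phagocyte markers and 6 of 7 microglial markers were called higher, as were 5 of 6 fibroblast markers, with none of these lists at 0 in all libraries. Summed microglial markers were 1894 and 1754 CPM at 7 d, 679 and 726 CPM at 1 month and 673 CPM at 2 months on the infarcted side, and 366 to 448 CPM on the other. Summed fibroblast markers were 1141, 1307, 283, 77.3 and 168 CPM on the infarcted side. Among the 1 month and 2 month infarcted libraries, Atf3 was lowest at 1 month with levetiracetam. The phagocyte sum (124 CPM) and the fibroblast sum (77.3 CPM) were lowest there too, while the microglial sum (726 CPM) was highest. The part of these markers in the Atf3 result was not tested.

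Against the single naive library, Atf3 on the infarcted side differed by 1.60 on the log2 scale (SE 0.59, limma unadjusted p = 0.0252, adjusted p = 0.99993). None of the 8 genes was called by limma or edgeR, Atf3 alone had an unadjusted p under 0.05 with each tool, and 0.00611% of 16367 genes were called. The ratios to naive ran from 19.1 (7.22 to 71.5) at 7 d to 3.70 (1.26 to 14.8) at 1 month with levetiracetam on the infarcted side, over 4 naive tags. For the non-infarcted side the ratio was 3.77 (1.27 to 15.1) at 7 d, and the interval held equality in the 4 later or treated states.

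Levetiracetam made no call among the 7 genes tested on each side, by limma or edgeR, where 0.518% of 16399 genes were called on the infarcted side. No member had an unadjusted p under 0.05 on the infarcted side, and Ngfr alone did on the other. Atf3 with the drug differed by -0.44 on the infarcted side (SE 0.23, limma adjusted p = 0.620). At 7 d the treated and untreated infarcted libraries could not be told apart (ratio 0.932, 0.695 to 1.25), and at 1 month the treated one was lower (0.420, 0.236 to 0.728). The sign of the fitted value turned without the untreated 7 d library (to 0.0027) or without the treated 1 month library (to 0.36), in fits that also dropped time as a factor. For the difference between the sides in the drug effect, 0 of 8 genes were called by limma or edgeR, 1 had an unadjusted p under 0.05 with limma and 0 with edgeR, and 0.173% of 16228 genes were called.

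The annotated start of Atf3 that RefSeq gives, at position 191183333 on the minus strand of chromosome 1 (GRCm38.p6), lies inside the gene span of chr1:191170296-191218039. Its window, at chr1:191183324-191183493, is shown because this gene moved most. Capitals mark CGTCA, the reverse complement of TGACG, from 7 to 3 bases before the start, and CCGCCC, the reverse complement of GGGCGG.
Atf3 window 1: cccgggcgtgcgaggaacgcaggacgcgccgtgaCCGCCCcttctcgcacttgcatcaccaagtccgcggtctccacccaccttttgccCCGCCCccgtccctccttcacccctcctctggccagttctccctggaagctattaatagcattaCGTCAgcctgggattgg

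Stress genes that act beside ATF3 were read from 22 genes, 18 of them tested between the sides. Hmox1, heme oxygenase, was higher on the infarcted side by 1.48 on the log2 scale (4.43 to 35.9 CPM against 3.38 to 6.01 CPM). Cebpd, a factor of the acute phase, was higher by 0.87, and Chac1, a glutathione-degrading enzyme of the integrated stress response, was lower by -0.36. So 3 of 18 were called, where 7.00% of all genes were, and the median was 0.04 against 0.01 over all genes tested. The number called ran from 1 to 4 over 12 alternatives. The calls held in 7 of 12 alternatives for Hmox1, 12 of 12 for Cebpd and 5 of 12 for Chac1.

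From 7 d to 1 month on the infarcted side, 5 of 19 stress genes fell and 2 rose, where 16.7% of all genes were called, with a median of -0.16 against -0.04. The number called ran from 2 to 11 over 12 alternatives. Hmox1 fell by 2.06, Junb by 0.71 and Cebpd by 0.70, and Jund, the AP-1 subunit present in resting cells, rose by 0.98. Hmox1 and Jund were called in 12 of 12 alternatives, Junb in 11 and Cebpd in 10. Junb stands in the firing list too. Junb and Jund moved the same way on the non-infarcted side. There Junb went from 85.2 and 87.8 CPM at 7 d, without and with levetiracetam, to 41.5 and 47.4 CPM at 1 month. Jund went from 162 and 159 CPM to 353 and 359 CPM. In the same libraries Hmox1 lay between 3.38 and 5.28 CPM and Cebpd between 10.4 and 12.6 CPM. On the infarcted side 6 of 7 phagocyte markers were called lower over the same interval. The part of these markers was not tested.

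**Figure D4:**
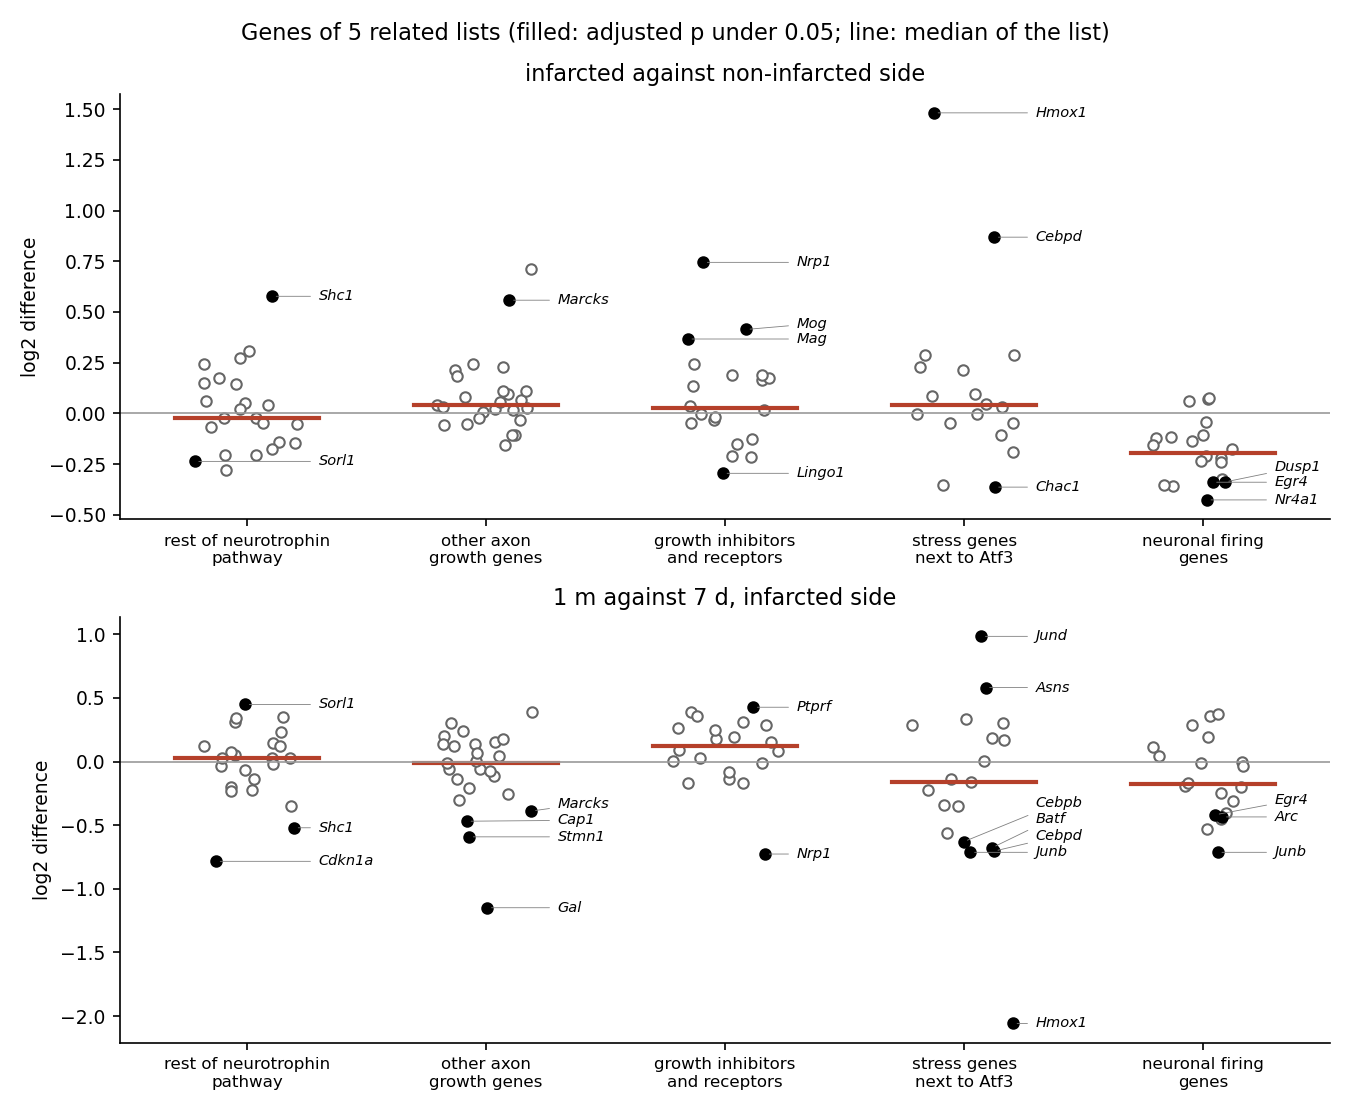
Log2 differences of single genes (points) of 5 lists for the side (top) and for 1 month against 7 d on the infarcted side (bottom); filled points passed limma's adjusted p of 0.05 and red lines are list medians. Hmox1 stands highest in the top panel (1.48) and lowest in the bottom panel (-2.06).

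For each of the 8 genes, the 3 genes with the most similar profile over the 11 libraries were looked up among genes with a mean of at least 5 CPM, by Pearson's r of log2(CPM + 1), as a description only. Atf3 was most like Ifnar2, a subunit of the type I interferon receptor (0.981), and Nrp1 (0.981), whose tags Mir1903 shares. Bdnf was most like Aarsd1 (0.876), Nrn1 (0.875), which encodes the neuritin that is itself a target of neuronal activity, and Uqcc1 (0.875). Gap43 was most like Tmem237 (0.967), Gabra3 (0.961), a GABA-A receptor subunit, and Trp53bp1 (0.957). Sort1 was most like Hmgcs1 (0.980), an enzyme of sterol synthesis, then Extl3 (0.952) and Mlip (0.946). For Ntrk2 they were Ripor2 (0.935), Clasp2 (0.925) and Nr2e1 (0.920), and for Ntrk3 Ctxn2 (0.962), Fam171b (0.960) and Ogfod2 (0.958).

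For the scarce receptor and ligand, Ngfr was most like Slc52a2 (0.940), Zfx (0.908) and Nop14 (0.896), and Ntf3 was most like Cbwd1 (0.887), Otub2 (0.856) and Sgf29 (0.835). Among the 8 genes themselves, r was highest for Sort1 with Bdnf (0.752) and Sort1 with Gap43 (0.70) and lowest for Gap43 with Ntrk3 (-0.738). For Gap43 with Ntrk3, the 2 month non-infarcted library was the highest of the 11 for Gap43 and the lowest for Ntrk3, and the 1 month non-infarcted library with levetiracetam was the reverse. Atf3 had r between -0.27 and 0.20 with the other 7. All of these values share libraries, states and depth.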

How the data were processed

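CAGE tags were counted in 11 libraries of mouse cortex, 1 per group as the labels give it. The deposited values are CPM, computed by the authors. Per the submitters' processing notes, which give no roles, the tools included HISAT2 2.0.5, BWA 0.7.17 and DESeq2 1.20.0, and the build was GRCm38. Every CPM value was a whole number of tags over the library total, within 0.01 of a tag (100% of values), so tags were recovered.

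Log2(CPM + 1) of genes with a mean of at least 1 CPM in the libraries compared was tested with limma 3.58.1 (mean-variance trend) in R 4.3.3. The count test edgeR 4.0.16 (quasi-likelihood) on recovered tags was an alternative and called 1281 genes between the sides against 1136. The fits for the side and for time on the infarcted side were run on simulated counts, drawn with the spread estimated from these libraries. The other fits were not. The fit for the side held a term for the state and left 4 residual degrees of freedom. The fits against naive held no covariate and left 4, and those for time and levetiracetam held both and left 1. Single pairs were given as ratios with exact 95% intervals, which cover counting error only, and so do levels. Other alternatives were a pseudocount of 0.25, no expression limit or one of 5 CPM, centring on the median gene, TMM factors, other covariates and leaving out each state, which in the fits for time and levetiracetam also drops the other factor.

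The genes and lists were chosen with earlier results of these data known. Named list genes were the called ones with the largest log2 difference, up to 4 per list and comparison. Some genes of the lists are not reported here and were left out of the counts. Of the identifiers, 99.81% were found in GENCODE M21, whose coordinates are used, and promoter windows are from RefSeq. No symbol of the 8 was among the 79 rows with a duplicated symbol, and no gene within 5 kb had tags within 5% of theirs in all libraries.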

Additional observations from a re-analysis of the deposited data

Results flagged for a closer look

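Gap43 was flagged because the change from 7 d to 1 month differed between the sides by a test of the difference itself, 0.43 on the log2 scale. The call held in 3 of 11 alternatives, with limma or edgeR adjusted p up to 0.776. Its ratio of infarcted to non-infarcted lay below 1 in both 7 d states (0.812 and, with levetiracetam, 0.779) and above 1 in both 1 month states (1.09 and 1.06).

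For Bdnf and Gap43, levetiracetam over none went in opposite directions at 7 d and 1 month on both sides, which was not tested because each group is 1 library. Bdnf had 0.823 infarcted and 0.738 non-infarcted at 7 d, then 1.31 and 1.27 at 1 month. Gap43 had 1.08 infarcted and 1.13 non-infarcted at 7 d, then 0.821 and 0.849 at 1 month. Each counting interval left out equality. Against the spread of genes with a mean of at least 10 CPM, both ratios of Bdnf at 7 d lay below the lowest 5%, while its 1 month ratios and all 4 of Gap43 lay within the central range.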

How the results depend on the processing

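Of 225 alternative values of single genes of the set, 199 kept their direction and side of the threshold, 10 lost the call, 6 gained it and 10 turned in sign. Of 335 for named list genes, 221 kept both, 114 lost the call and 0 turned. Genes of the set called between the sides, 1 in the report, numbered 0 with a limit of 5 CPM, by which Atf3 was not tested, and 0 to 2 when states were left out in turn (0 without 7 d and without 1 month, and Bdnf with Atf3 without 2 months). For time on the infarcted side, 1 became 0 with the limit of 5 CPM, 2 with centring on the median gene and 1 to 2 with a library left out. For time on the non-infarcted side 0 became 0 to 1 with a library left out. For the difference between the sides in time, 1 became 0 with no limit, with either other scaling and with edgeR, and 0 to 1 with states left out, where the gene called was Ntrk2 or Atf3 and not Gap43. In the fits for time and levetiracetam, leaving out a library or state also drops the other factor and leaves 1 arm with a single library, so those values change 2 choices at once. The causes were not tested.

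Side differences turned to -0.029 (median centring) and -0.0052 (TMM factors) for Ntrk2 and to -0.018 (median centring) for Ntrk3. With states left out they ran from -0.21 to 0.062 for Ntf3, -0.014 to 0.15 for Ntrk2 and -0.10 to 0.12 for Ntrk3. Atf3 with levetiracetam on the infarcted side ran from -1.24 to 0.36, and the difference between the sides for Ntrk2 with levetiracetam from -0.032 to 0.56. All genes called between the sides, 1136 with 1008 higher, were 1271 with 878 higher after median centring, 1184 with 886 higher with TMM factors, 245 with no state factor and 71 to 1288 with a state left out. Over time on the infarcted side, 2732 with 864 higher became 2648 with 1230 higher after median centring, 1547 without the drug as a factor and 704 to 4962 with a library left out as well. On the other side 1979 with 952 higher became 1924 with 1175 higher after median centring and 702 to 2907 with a library left out. For the difference between the sides in time, 888 became 100 with edgeR and 162 to 857 with states left out. For levetiracetam, 85 infarcted became 0 to 209, 1 non-infarcted 0 to 24, and 28 for the difference between the sides 0 to 144. Genes with few tags, Ntf3, Ngfr and Atf3 outside the lesion, are limited by depth. The side comparison pairs the sides by state, and no other block was fitted because the labels carry no replicate numbers.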
